A study of Mus musculus with 10 samples.

Results

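Genes of respiratory complex I were compared between livers of mice bearing T cell-low and T cell-high pancreatic tumours. The members are all genes in the table whose symbol starts with Ndufa, Ndufb, Ndufc, Ndufs or Ndufv, the assembly factors (Ndufaf) included, and symbols ending in -ps were to be left out, of which there were 0. This gave 47 of 24972 genes, 39 taken as structural subunits by their symbol and 8 as assembly factors. RNA came from whole liver, with 4 T cell-low libraries from mice carrying the line 6419c1 and 6 T cell-high libraries from mice carrying the line 6555c3. Both lines are KPC-derived, from a widely used genetic mouse model of pancreatic cancer, and all samples are labelled WT. With 1 line per class, an effect of the line and one of the class cannot be told apart. The sources used here give no tumour site, sex or age. They do not say whether each library is 1 mouse, so p-values rest on the spread of these libraries, part of which may be technical.

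Complex I (NADH:ubiquinone oxidoreductase) takes electrons from NADH, passes them to ubiquinone and pumps protons across the inner mitochondrial membrane. It is L-shaped, with a matrix arm that holds the flavin and the iron-sulphur clusters and a membrane arm that holds the proton pumps. The catalytic core is partly encoded by the nucleus (Ndufs and Ndufv genes) and partly by mitochondrial DNA, and around it sit accessory subunits that stabilise the complex. Assembly factors help to build it and are not part of the finished enzyme. Hepatocytes are rich in mitochondria and use NADH from fat and amino acid oxidation through this complex. The mitochondrially encoded subunits were not analysed here.

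Values are taken to be counts that the submitters scaled to a common depth, called scaled counts below, and their library totals ran from 7000659 to 8257373. A fold change is the T cell-low mean minus that of T cell-high in log2(scaled count + 1), tested with limma and adjusted over all 11110 genes with a mean of at least 10. One set of libraries stands apart. In 93 tested genes each of T cell-high 1, 3, 5 and 6 lay at least 1 log2 unit above the 6 others, and in 5 below them; 5 of these genes are members (Ndufa1, Ndufa4, Ndufa8, Ndufb3 and Ndufb4c). The 4 libraries were known from an earlier look at all genes, and a fit with them as a covariate compares T cell-low with T cell-high 2 and 4 alone. All 8 hepatocyte markers searched were above 0 in every library, with sums of 351823 to 496406 scaled counts in T cell-low, against 225742 to 488092. Of these 8, 1 was called, Apoa1, which rose without overlap (1.08, limma adjusted p = 0.0208). The 8 neutrophil markers summed to 639 to 1766 against 39.8 to 211, with Ly6g and Camp listed at 0 in most libraries and the groups not overlapping, and all 4 tested ones rose (S100a8 by 3.85, limma adjusted p = 0.00331). Of these 4, Ngp and Retnlg reached the mean of 10 only through T cell-low, so the count is partly set by that filter. S100a8 and S100a9 passed it on their T cell-high means too (44.6 and 48.5). Of the tested markers of Kupffer cells 0 of 7 were called, of sinusoidal endothelium 2 of 6 (higher), of stellate cells 1 of 6 (higher), of cholangiocytes 0 of 3 and of T cells 0 of 1. In the endothelial and the stellate cell list, 3 of 6 fold changes each lay below 0. With T cell-low 1 left out, limma called 2 endothelial markers higher and 2 lower, and 1 stellate cell marker higher and 2 lower (15.4% and 17.2% of all tested genes). Erythroid markers, of which 1 of 5 rose, summed to 43059 to 98086 against 19679 to 51907. Within them the globin gene Hbb-bs had 3465 to 9359 scaled counts in T cell-high 1, 3, 5 and 6 and 16.2 to 215 in the other libraries. It was the only 1 of the 5 erythroid markers in which those 4 libraries lay above all others. Hba-a2, the one that rose, had 15331 to 32670 in them, 50406 and 25604 in T cell-high 2 and 4, and 40896 to 93823 in T cell-low. The part of these markers in the results below was not tested. In whole liver, fewer cells of a type and less RNA per cell cannot be told apart.

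All complex I transcripts that passed the test were lower in T cell-low livers. Of the 38 structural subunits tested 12 fell and 0 rose, and of the 8 assembly factors 1 fell and 0 rose. By limma, 7.39% of all tested genes were called lower and 5.39% higher, against 31.6% and none of the subunits. Of the assembly factors 12.5% were called lower. At an unadjusted p below 0.05, 26 subunits were lower and 0 higher, and 4 assembly factors were lower and 1 higher, against 18.5% of all tested genes lower and 16.0% higher. Fold changes lay below 0 for 42 of 46 tested members (91.3%, against 49.8% of all tested genes), and the median was -0.65 for subunits and -0.53 for assembly factors, against 0.003 over all genes. The 13 called members had fold changes of -1.70 to -0.63 and adjusted p-values of 0.0209 to 0.0487, so all of them lay close to the threshold, and 5 more members missed it with an adjusted p below 0.06.

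The summed scaled count of the subunits shows the same difference without a model. It was 37713, 30227, 35386 and 30536 in T cell-low 1 to 4, against 41216 to 49827 in T cell-high, where libraries 2 and 4 had 44000 and 41216. Every T cell-low library lay below every T cell-high library, libraries 2 and 4 of that group included. The mean was 33466 ± 3688 (SD, n = 4) against 45227 ± 2794 (SD, n = 6), or 74.0% of it. Library totals differ as well, and as a share of the total all members made up 0.449% ± 0.0776 (SD, n = 4; 0.383% to 0.555%) against 0.649% ± 0.0264 (SD, n = 6; 0.604% to 0.682%). These sums weight highly counted subunits most. Assembly factors summed to 1427 ± 237 (SD, n = 4) against 1513 ± 160 (SD, n = 6), with overlap.

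Single libraries decided how many members were called, while the median of the subunits stayed between -0.75 and -0.51 in every fit that left out 1 library. Leaving out T cell-low 1 gave 24 subunits called lower (17.2% of all tested genes), T cell-high 2 gave 23 (11.8%) and T cell-high 4 gave 9 (5.9%). With T cell-low 3, T cell-high 1 or T cell-high 6 left out it was 1 (3.06%, 2.39% and 2.39% of all tested genes). Leaving out T cell-low 2, T cell-low 4, T cell-high 3 or T cell-high 5 gave 0 (0.603%, 0.963%, 2.11% and 2.04%), and 19 to 23 subunits then were lower at an unadjusted p below 0.05, as were 13.2% to 15.5% of all tested genes. When the fit held the set of 4 libraries as a covariate, limma called 0 members, as it called 0 of all genes, and 10 of 46 members had an unadjusted p below 0.05, all lower (21.7%, against 8.89% of all tested genes lower and 16.1% in either direction). The median of the subunits was then -0.37, that of the assembly factors -0.39, and 39 of 46 fold changes lay below 0, all 13 of the called members among them. Their direction was chosen on the same libraries and is no separate check.

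**Figure D1:**
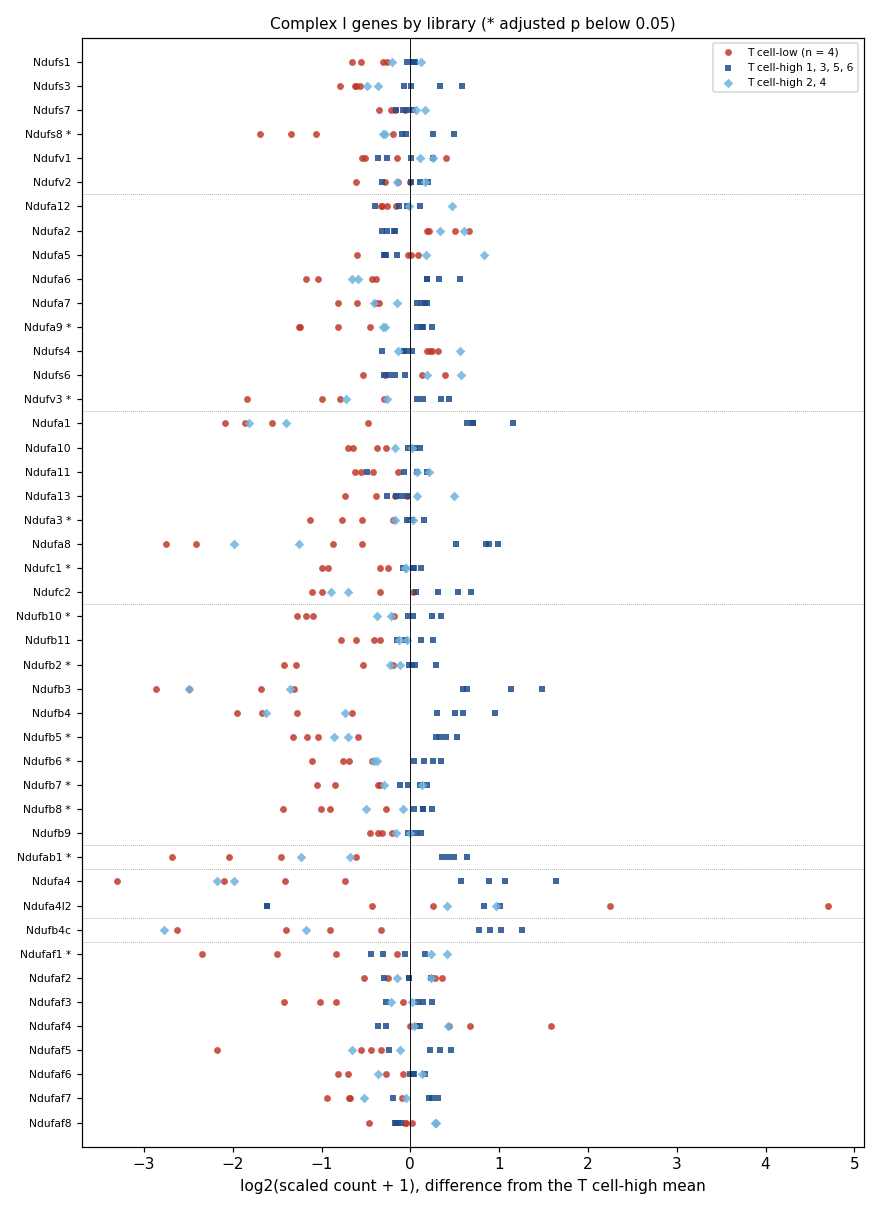
Each row is 1 of 45 of the 46 tested complex I genes (1 is not shown) and each point 1 library, as log2(scaled count + 1) minus the mean of the 6 T cell-high libraries. Dotted lines separate, from the top, core, matrix arm, proximal and distal membrane arm subunits, Ndufab1, the Ndufa4 pair, Ndufb4c and the assembly factors; most red points (T cell-low) lie left of 0, and for genes such as Ndufa1 and Ndufb3 the light diamonds (T cell-high 2 and 4) lie among them.

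Promoter sequences are shown for called subunits without overlap between the groups and for Ndufaf1 and Ndufaf4, the assembly factors with the lowest and the highest fold change, so that a structural and an assembly gene can be read side by side. Of the 5 such subunits, Ndufa9 and Ndufb6 are printed because they hold the core of the NRF1 site, which the RefSeq promoters of Ndufa3, Ndufb7 and Ndufc1 do not. Each printed sequence is the stretch of 150 bases before the RefSeq transcription start (GRCm38.p6), read 5′ to 3′ along the gene. Capitals mark matches on either strand to the core of the NRF1 site, TGCGCA, which reads the same on both strands, or to the core of the site for ETS factors, which is CGGAAG. NRF1 and the ETS factor GABPA are known regulators of nuclear genes for mitochondrial proteins.
Ndufa9 (chr6:126849145-126849294, minus strand): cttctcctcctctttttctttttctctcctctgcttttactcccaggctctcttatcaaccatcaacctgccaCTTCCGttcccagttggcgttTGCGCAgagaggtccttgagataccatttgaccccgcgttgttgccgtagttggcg
Ndufb6 (chr4:40279422-40279571, minus strand): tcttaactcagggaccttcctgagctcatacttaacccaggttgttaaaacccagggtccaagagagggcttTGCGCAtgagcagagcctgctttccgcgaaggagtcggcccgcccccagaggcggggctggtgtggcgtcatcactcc
Ndufaf1 (chr2:119662835-119662984, minus strand): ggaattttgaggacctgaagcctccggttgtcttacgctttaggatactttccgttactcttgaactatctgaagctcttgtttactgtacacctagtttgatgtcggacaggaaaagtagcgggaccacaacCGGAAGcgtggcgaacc
Ndufaf4 (chr4:24897933-24898082, plus strand): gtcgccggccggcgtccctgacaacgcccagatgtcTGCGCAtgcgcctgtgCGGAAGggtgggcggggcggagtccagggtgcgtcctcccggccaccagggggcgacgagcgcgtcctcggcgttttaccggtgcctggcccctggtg

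RefSeq promoters, from 250 bases before to 50 after the start, were found for 40 of the 47 members. The NRF1 core was in 27.5% of them, against 16.1% of the 8769 tested genes with a promoter in that table and 8.79% of all 27025 genes in it. The ETS core was in 35.0%, against 35.5% and 18.8%. The YY1 core ATGGCG (both strands; YY1 is another known regulator of mitochondrial genes) was in 32.5%, against 18.0% and 10.2%. Among the 7 assembly factors with a promoter the ETS core was in 6 and the NRF1 core in 1, which is Ndufaf4, and among 33 subunits they were in 8 and 10. Of the 13 called members 4, 6 and 4 held the NRF1, ETS and YY1 letters. No 2 matches overlapped in a member's promoter, and a match is a description of letters only.

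The 7 nuclear core subunits all had fold changes below 0, and 1 of them fell. Ndufs8, which carries iron-sulphur clusters on the path to ubiquinone, had 769, 272, 422 and 345 scaled counts in T cell-low 1 to 4 and 710 to 1236 in T cell-high (median 837). T cell-low 1 lay within the T cell-high range and the other 3 far below it. The log2 fold change was -1.07 (SE 0.28, limma adjusted p = 0.0297), and it was -1.36 (adjusted p = 0.00122) without T cell-low 1 and -0.77 (adjusted p = 0.306) with the library set as a covariate.

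Ndufs1, the large subunit that holds the most clusters, had 552, 451, 538 and 421 scaled counts in T cell-low, against 574 to 720 in T cell-high (median 682). Ndufs3, which forms part of the ubiquinone-reducing module, had 414, 364, 428 and 412 against 452 to 948 (median 619), and a share of 25.2% of its 3′ end sequence occurs in other genes. The groups did not overlap for either gene, but limma did not call them (-0.45, adjusted p = 0.0817, and -0.65, adjusted p = 0.0659; -0.40 and -0.22 under the covariate for the library set).

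Without the covariate for the library set, Ndufs7, Ndufv1 and Ndufv2 differed least within the core. Ndufs7, the carrier of the last cluster before ubiquinone, had 696, 642, 623 and 565 scaled counts in T cell-low, against 650 to 810 in T cell-high (median 729; fold change -0.20). Ndufv1, the flavin-binding subunit that oxidises NADH, had 1347, 2582, 1769 and 1373 against 1519 to 2349 (median 2038; -0.20). T cell-low 2, the lowest T cell-low library for 25 of the 38 subunits, was the highest of all 10 libraries for Ndufv1. Its partner Ndufv2 had 744, 672, 819 and 536 against 660 to 940 (median 852; -0.26). Limma did not call these 3 genes (adjusted p = 0.375, 0.539 and 0.326). Under the covariate their fold changes were -0.31, -0.39 and -0.26, against -0.22 for Ndufs3.

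Matrix arm accessory subunits were divided. Of 9 tested, 2 fell and 7 did not pass, the median fold change was -0.27, and the range was -0.98 to 0.39. Under the covariate for the library set the median was -0.46, and 8 of 9 lay below 0. Ndufa9, which sits where the matrix arm meets the membrane, had the lowest adjusted p of all members. Its scaled counts were 442, 253, 345 and 256 in T cell-low, against 488 to 720 in T cell-high (median 652), without overlap. The fold change was -0.94 (SE 0.21, limma adjusted p = 0.0209), it kept its call in 6 of the 10 fits that leave out 1 library, and under the covariate for the library set it was -0.64 (adjusted p = 0.259). The other called member, Ndufv3, ranged from 318 to 921 in T cell-low, and from 685 to 1531 in T cell-high (-0.98, limma adjusted p = 0.0487; -0.48 under the covariate).

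Among the 7 matrix arm subunits that did not pass, Ndufa2 and Ndufs4 had fold changes above 0 (0.39 and 0.24). Ndufa2 had 4869 to 6727 scaled counts in T cell-low, against 3418 to 6471 in T cell-high, and under the covariate for the library set its fold change was -0.08. Ndufs4, whose loss in mice causes a disease like Leigh syndrome, had 933 to 1015 against 655 to 1204. The rest, Ndufa5, Ndufa6, Ndufa7, Ndufa12 and Ndufs6, had fold changes of -0.13, -0.76, -0.54, -0.27 and -0.08. Under the covariate for the library set they were -0.63, -0.13, -0.26, -0.49 and -0.46. Ndufa12 shares 28.1% of its 3′ end with another gene.

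Proximal membrane arm subunits had fold changes below 0 in 8 of 8 tested members, and 2 of them fell. Ndufa3, a small membrane subunit, had 1401, 737, 1103 and 947 scaled counts in T cell-low, against 1431 to 1794 in T cell-high (median 1619). Ndufc1 had 1159, 693, 1091 and 727 against 1304 to 1503 (median 1370). In both genes the T cell-high libraries, the set of 4 included, lay in a narrow band and all T cell-low libraries below it. Their fold changes were -0.66 (SE 0.19, limma adjusted p = 0.043) and -0.63 (SE 0.19, adjusted p = 0.0475), and under the covariate for the library set they were -0.59 and -0.57. The gene Tfpt overlaps the 3′ end of Ndufa3 on the other strand, and whether the counting used strand is not given in the sources used here.

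Of the proximal subunits that did not pass, Ndufa10 had no overlap either, with 1319 to 1782 against 1908 to 2331 scaled counts (-0.50, limma adjusted p = 0.0557). Ndufa11 and Ndufa13, the latter also known as the cell death regulator GRIM-19, had fold changes of -0.44 and -0.33. Under the covariate for the library set they were -0.58 and -0.62. Ndufa1, Ndufa8 and Ndufc2 are described below with the genes that differ within the T cell-high group. The ninth member, Ndufs5, was the only one not tested: it was listed at 0 in 8 libraries, at 50.1 in T cell-low 1 and at 9.25 in T cell-high 2, and 42.6% of its 3′ end occurs in another gene.

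Without the covariate for the library set, distal membrane arm subunits had a higher share of calls than the core, matrix arm or proximal subunits. This difference was not tested. Of 10 tested 6 fell, 0 rose, and all had fold changes below 0 (median -0.88, range -2.09 to -0.34). With the covariate 0 were called. An unadjusted limma p below 0.05 was then found in 1 of 10 distal and 4 of 8 proximal subunits. It was found in 3 of 9 matrix arm and 1 of 7 core subunits, against 16.1% of all tested genes. The medians were then -0.40 (distal), -0.49 (proximal), -0.46 (matrix arm) and -0.31 (core). In 7 of 10 distal subunits T cell-high 1, 3, 5 and 6 lay above all other libraries. Ndufb8, whose protein is widely used as a marker of assembled complex I, had 2082, 933, 1257 and 1345 scaled counts in T cell-low, against 1785 to 2983 in T cell-high (median 2687). T cell-low 1 lay above T cell-high 2 and below the other 5. The fold change was -0.90 (SE 0.23, limma adjusted p = 0.0295; -0.61 under the covariate). The gene Gm20538 overlaps the 3′ end of Ndufb8 on the same strand.

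Ndufb10, a subunit with disulphide bonds that faces the intermembrane space, had 743, 347, 372 and 394 scaled counts in T cell-low, against 650 to 1071 in T cell-high (median 842). Ndufb2 had 911, 389, 718 and 426 against 891 to 1270 (median 1045). In each only T cell-low 1 reached into the T cell-high range, and for Ndufb2 it passed only T cell-high 4. Their fold changes were -0.93 (SE 0.24, limma adjusted p = 0.0296) and -0.86 (SE 0.24, adjusted p = 0.0396), or -0.64 and -0.69 under the covariate.

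For Ndufb6 and Ndufb7 the groups did not overlap. Ndufb6 had 317, 199, 265 and 253 scaled counts in T cell-low, against 323 to 544 in T cell-high (median 457), with T cell-high 2 and 4 as the lowest of their group at 323 and 328. Ndufb7, a subunit on the outer face of the arm, had 604, 375, 612 and 431 against 633 to 887 (median 798). The fold changes were -0.74 (SE 0.22, limma adjusted p = 0.0431) and -0.65 (SE 0.20, adjusted p = 0.0478), or -0.35 and -0.57 under the covariate. Ndufb9 and Ndufb11 did not overlap either and were not called (-0.34, adjusted p = 0.131, and -0.54, adjusted p = 0.0506). Variants of the X-linked gene Ndufb11 cause heart and eye disease in humans.

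Groups without overlap were counted over all members. In 10 of the 46 tested members all 4 T cell-low libraries lay below all 6 T cell-high libraries, and in 0 above them. This is 21.7%, against 4.02% of all tested genes below and 3.37% above. All 10 are structural subunits, namely Ndufs1, Ndufs3, Ndufa9, Ndufa10, Ndufa3, Ndufc1, Ndufb11, Ndufb6, Ndufb7 and Ndufb9. In these genes T cell-high 1, 3, 5 and 6 were 0.07 to 0.64 higher in mean log2 than T cell-high 2 and 4. The difference was largest in Ndufs3 (0.64), Ndufb6 (0.59) and Ndufa9 (0.45), where the 4 libraries lay above all others. Under the covariate for the library set the 10 fold changes were -0.64 to -0.22, against -0.94 to -0.34 without it. The 5 called ones among them are Ndufa9, Ndufa3, Ndufc1, Ndufb6 and Ndufb7.

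**Figure D2:**
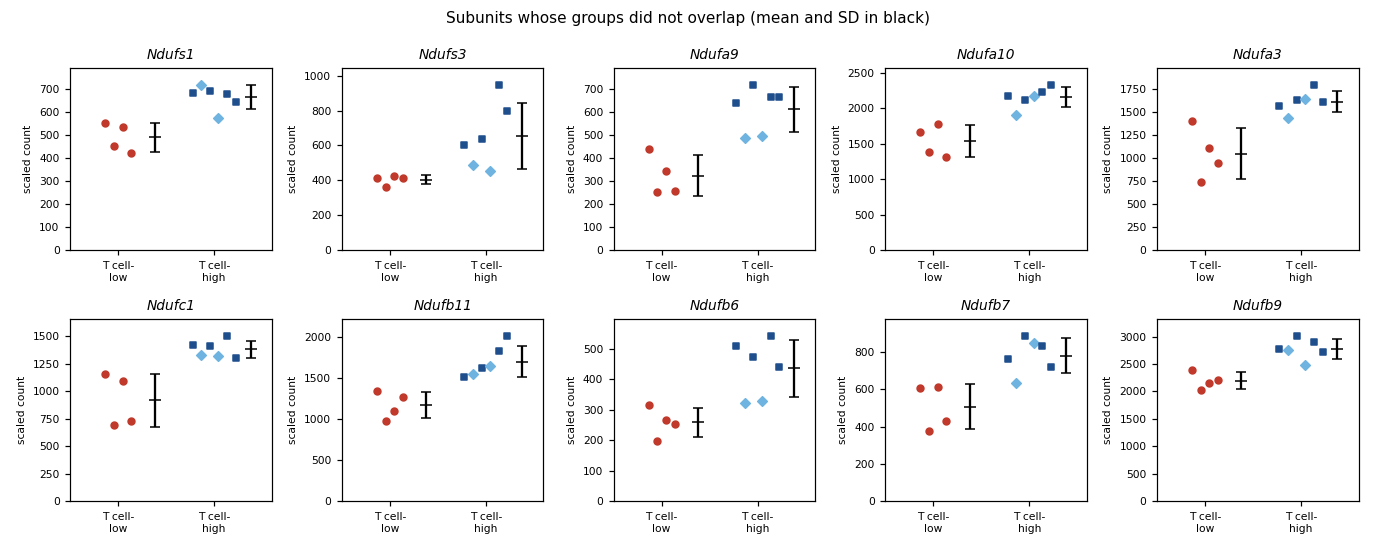
Scaled counts per library of the 10 subunits whose groups did not overlap; each point is 1 library (circles T cell-low, dark squares T cell-high 1, 3, 5 and 6, light diamonds T cell-high 2 and 4), and the black bars are mean and SD (n = 4 and n = 6). In every panel the red circles lie below all blue points, for Ndufb6 by the least (317 against 323).

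A second pattern ran within the T cell-high group. In 20 of 38 subunits and 0 of 8 assembly factors T cell-high 1, 3, 5 and 6 were all above the 6 other libraries, which was so in 11.1% of all tested genes. In 9 subunits they were at least 1 higher in mean log2 than T cell-high 2 and 4 (10.5% of all tested genes), namely Ndufa1, Ndufa4, Ndufa8, Ndufab1, Ndufb3, Ndufb4, Ndufb4c, Ndufb5 and Ndufc2. Members of this kind helped to set the 4 libraries apart in the first place, so these counts are a description.

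Ndufb3, a small distal subunit, had the most negative fold change of all members and shows the pattern clearly. It had 593, 420, 756 and 408 scaled counts in T cell-high 1, 3, 5 and 6, 47.1 and 105 in T cell-high 2 and 4, and 108, 47.1, 36.3 and 83.5 in T cell-low. T cell-high 2 and 4 therefore lay inside the T cell-low range. The fold change was -2.09 (SE 0.68, limma adjusted p = 0.0584) and it was -0.16 with the library set as a covariate. Ndufa1, an X-linked subunit needed for assembly, had 240 to 346 in the 4 libraries, 43.2 and 57.8 in T cell-high 2 and 4, and 35.6 to 111 in T cell-low (-1.50, adjusted p = 0.0928; 0.11 with the covariate).

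Ndufa8 followed with 856 to 1182 scaled counts in the 4 libraries, 150 and 250 in T cell-high 2 and 4, and 87.9 to 410 in T cell-low. Its fold change was -1.64 (limma adjusted p = 0.0924), and -0.02 with the covariate. Ndufb4 and Ndufc2 had fold changes of -1.39 (adjusted p = 0.0586) and -0.60 (adjusted p = 0.226), and -0.20 and 0.20 with the covariate. None of these 5 genes passed, and leaving out T cell-high 2 or T cell-low 1 gave a call for Ndufa1, Ndufa8, Ndufb3 and Ndufb4.

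Ndufb5 and Ndufab1 were the 2 called genes with this pattern. Ndufb5 had 636, 382, 425 and 464 scaled counts in T cell-low, against 585 and 527 in T cell-high 2 and 4, and 1169 to 1375 in the remaining libraries of T cell-high (-1.03, SE 0.30, limma adjusted p = 0.0437; -0.25 with the covariate). Only T cell-low 1 reached T cell-high 2 and 4. Ndufab1 encodes the mitochondrial acyl carrier protein, which also serves fatty acid synthesis and iron-sulphur cluster building. It had 401, 94.5, 149 and 222 in T cell-low, against 261 and 382 in T cell-high 2 and 4, and 787 to 956 in the other 4 (-1.70, SE 0.44, adjusted p = 0.0296; -0.74 with the covariate, adjusted p = 0.401). Of its 3′ end 18.9% occurs in other genes.

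**Figure D3:**
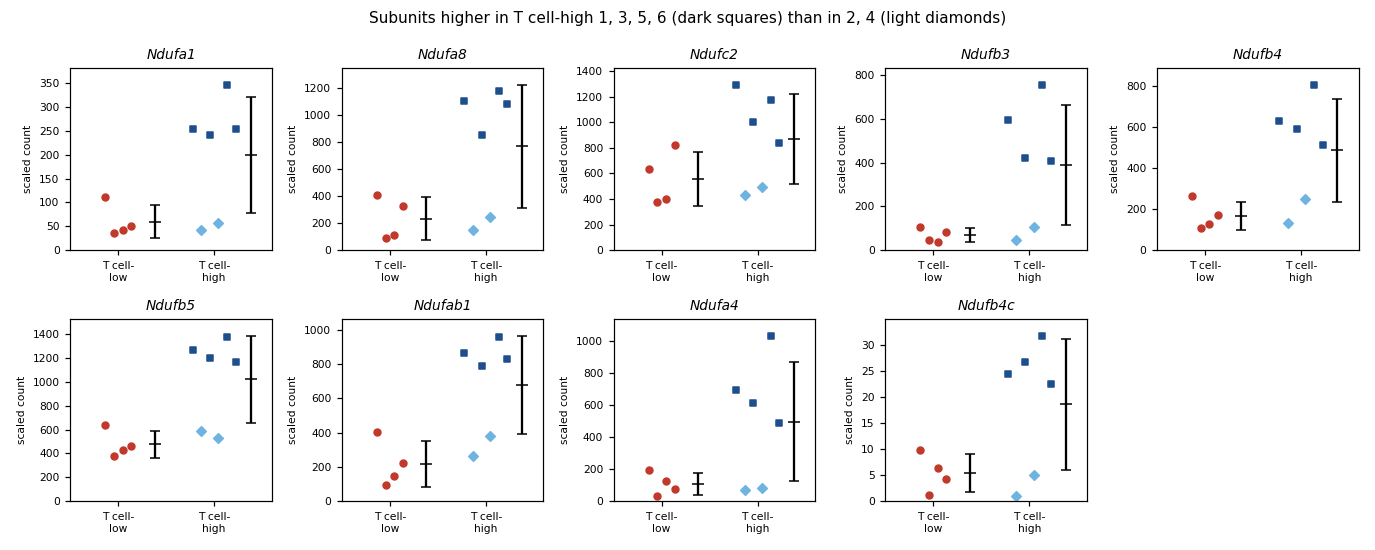
Scaled counts per library of the 9 subunits at least 1 higher in mean log2 in T cell-high 1, 3, 5 and 6 (dark squares) than in T cell-high 2 and 4 (light diamonds); circles are T cell-low, and black bars are mean and SD of each group (n = 4 and n = 6). In most panels the diamonds lie near or among the circles and below all squares.

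Shared 3′ ends were compared with this pattern. Among the 9 genes 4 share at least 10% of their 3′ end sequence with another gene (Ndufb3, Ndufb4, Ndufb4c and Ndufab1), as do 10 of all 47 members, and the other 5 share none of it. Ndufb4c is annotated in GENCODE as a processed pseudogene, all of its 3′ end occurs in other genes, Ndufb4 among them, and its values (22.4 to 31.8 scaled counts in the 4 libraries, 1.01 to 9.87 in the others) may hold reads of Ndufb4. It passed the filter only through those 4 libraries. The part of sequence sharing in the pattern was not tested.

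Ndufa4 and Ndufa4l2 are paralogues that carry the complex I name, though Ndufa4 is now placed in complex IV. Ndufa4 had 198, 32.6, 123 and 76.3 scaled counts in T cell-low, against 72.4 and 82.3 in T cell-high 2 and 4, and 489 to 1033 in the remaining libraries of T cell-high. It differed most of all members within the T cell-high group, by 3.12 in mean log2, and its fold change was -1.89 (SE 0.76, limma adjusted p = 0.102; 0.19 with the library set as a covariate). Ndufa4l2, a target of hypoxia-inducible factor that dampens complex I activity, had 2.64, 1.27, 13.5 and 78.7 in T cell-low, against 0 to 5.14 in T cell-high (median 3.77). Only T cell-low 3 and 4 lay above the T cell-high range, the gene passed the filter through T cell-low 4 alone, and it was not called (1.69, SE 1.05, adjusted p = 0.262).

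**Figure D4:**
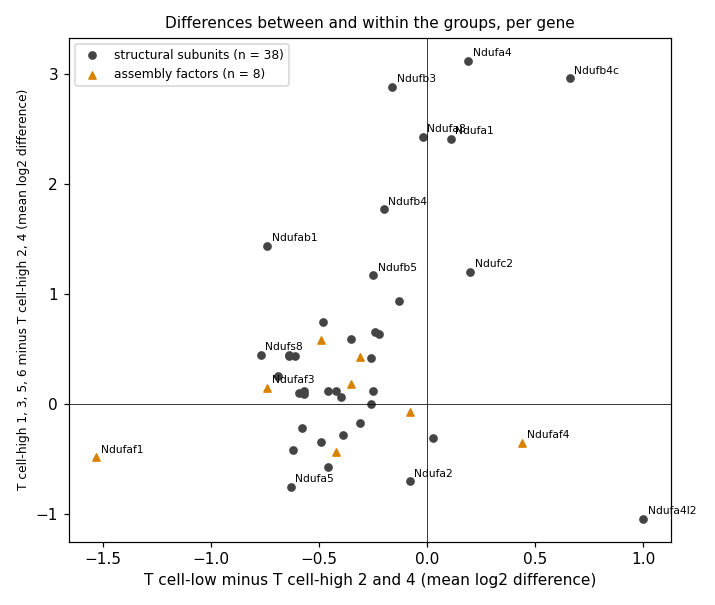
Each point is 1 of the 46 tested members; the horizontal axis is the mean log2 difference of the 4 T cell-low libraries from T cell-high 2 and 4, and the vertical axis that of T cell-high 1, 3, 5 and 6 from T cell-high 2 and 4. Points high on the plot (up to 3.12, Ndufa4) differ within the T cell-high group, and 39 of 46 points lie left of 0 on the horizontal axis.

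Of the 8 assembly factors 1 was called lower (12.5%, against 7.39% of all tested genes) and 7 did not pass. Fold changes lay below 0 in 7 of 8. Ndufaf1, which with Ecsit and Acad9 builds part of the membrane arm, fell. It had 173, 67.3, 107 and 36.9 scaled counts in T cell-low, against 141 to 256 in T cell-high (median 200), with T cell-low 1 inside the T cell-high range. The fold change was -1.21 (SE 0.36, limma adjusted p = 0.0462), and -1.53 (adjusted p = 0.189) under the covariate for the library set, the lowest value of all members there. It kept its call in 1 of the 10 fits that leave out 1 library, the one without T cell-low 1 (-1.56, adjusted p = 0.00377).

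Ndufaf4, an early factor of the matrix arm, was the only assembly factor with a fold change above 0. It had 261, 785, 353 and 417 scaled counts in T cell-low, against 203 to 350 in T cell-high (median 272). T cell-low 2, 3 and 4 lay above all T cell-high libraries, as in 13.5% of all tested genes. T cell-low 3 and T cell-high 2 were nearly equal (353 and 350), and T cell-low 1 lay within the T cell-high range. Ndufaf4 did not pass (0.67, SE 0.28, limma adjusted p = 0.113) but was called higher without T cell-low 1 (0.90, adjusted p = 0.0236), as were 15.4% of all tested genes. Its partner in the same step, Ndufaf3, had 123, 72.5, 63.8 and 48.0 against 108 to 154 (median 135). It narrowly missed the threshold in the other direction (-0.84, SE 0.26, adjusted p = 0.0503), and the gene Impdh2 overlaps its 3′ end on the other strand.

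The remaining 5 assembly factors did not pass and overlapped between the groups. Ndufaf5, which modifies Ndufs7, had 20.1, 4.88, 17.1 and 18.6 scaled counts in T cell-low, against 15.8 to 35.6 in T cell-high (median 26.7; -0.87, limma adjusted p = 0.161). Ndufaf8, known to stabilise Ndufaf5, had 476, 503, 480 and 359 against 441 to 607 (median 456; -0.14, adjusted p = 0.618). The 2 members of this pair thus had unlike fold changes, a difference that was not tested. Under the covariate for the library set they were -0.49 and -0.42.

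Ndufaf7, a methyltransferase, had 46.5, 30.5, 30.3 and 25.5 scaled counts in T cell-low, against 34.1 to 61.7 in T cell-high (median 52.6; -0.60, limma adjusted p = 0.140). Ndufaf6 had 136, 93.2, 156 and 101 against 128 to 185 (median 169; -0.47, adjusted p = 0.136). In both, T cell-high 4 was the lowest library of its group and lay within the T cell-low range. Ndufaf2, a paralogue of the subunit Ndufa12 that acts late in assembly, had 224, 147, 212 and 121 against 142 to 206 (median 173). Both group means were 176 (-0.03, adjusted p = 0.933).

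**Figure D5:**
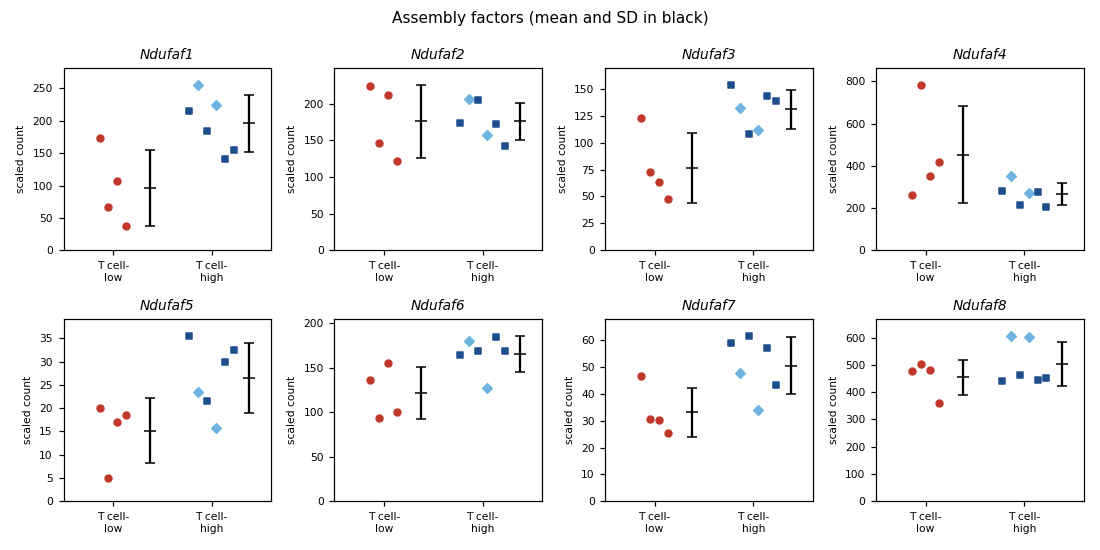
Scaled counts per library of the 8 assembly factors (circles T cell-low, dark squares T cell-high 1, 3, 5 and 6, light diamonds T cell-high 2 and 4; black bars mean and SD, n = 4 and n = 6). In each panel the groups overlap. Ndufaf4 has its 3 highest values in T cell-low 2, 3 and 4, which lie above all T cell-high libraries in 13.5% of all tested genes. For Ndufaf1, Ndufaf3 and Ndufaf7 T cell-low 2, 3 and 4 lie below all T cell-high libraries, as in 13.7% of all tested genes.

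By class medians, the T cell-low libraries had the same order in subunits and assembly factors, and those of T cell-high did not. Taken as the median log2 distance to the mean of T cell-high, T cell-low 1 to 4 were at -0.33, -1.04, -0.58 and -0.72 for subunits and at -0.08, -0.75, -0.32 and -0.61 for assembly factors. Within T cell-high, the subunits were at 0.07 to 0.20 in libraries 1, 3, 5 and 6 and at -0.30 and -0.16 in 2 and 4. Assembly factors ran from -0.19 to 0.18, with T cell-high 2 the highest at 0.18. The shared order of T cell-low held for these medians only. Summed scaled counts of the assembly factors were 1460, 1703, 1419 and 1126 in T cell-low 1 to 4. T cell-low 2 was the lowest T cell-low library in 2 of 8 assembly factors and 25 of 38 subunits (24.3% of all tested genes). T cell-low 1 was nearest to the T cell-high mean in both classes and was the highest T cell-low library in 28 of 46 members (60.9%, against 31.3% of all tested genes). The classes share libraries and differ in number, and their difference was not tested.

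Assembly factors with other names included 2 that fell. Of the 11 in a list 10 were tested, 0 rose, and the median fold change was -0.90 (-0.32 with the library set as a covariate). Ecsit, the partner of Ndufaf1, had 86.0, 48.2, 60.7 and 60.6 scaled counts in T cell-low, against 64.6 to 272 in T cell-high (-1.26, SE 0.35, limma adjusted p = 0.0384). Tmem70, which also serves ATP synthase assembly, had 120, 61.5, 59.9 and 72.3 against 95.7 to 214 (-1.12, SE 0.30, adjusted p = 0.0358). In both genes T cell-high 2 and 4 were the lowest of their group, and the fold changes with the covariate were -0.45 each. Of 12 regulators of mitochondrial biogenesis 1 rose, 0 fell, and the median was 0.44. The regulator that rose, Pprc1, a coactivator related to PGC-1, had 24.8, 56.5, 23.9 and 84.4 against 8.69 to 16.7, without overlap. Its fold change was 1.71 (SE 0.41, limma adjusted p = 0.0247), or 1.87 with the covariate.

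Other mitochondrial gene groups are given for scale. Of all tested genes 7.39% were called lower and 5.39% higher, and 4.02% did not overlap with T cell-low below and 3.37% above. Of 42 tested genes of complexes II to V 9 fell (21.4%) and 1 rose, with a median of -0.48 (-0.21 with the covariate). In these genes 4 did not overlap with T cell-low below (9.52%) and 1 above. Among them Uqcrb of complex III (-0.83, limma adjusted p = 0.0237), the muscle-type subunit Cox7a1 of complex IV (-1.86, adjusted p = 0.0333) and Atp5g1 of ATP synthase (-0.70, adjusted p = 0.041) fell. Cox7a1 had low values (T cell-low 1.35 to 9.68, T cell-high 12.3 to 23.9) and passed the filter only through T cell-high. Of 77 tested mitochondrial ribosomal proteins 7 fell (9.09%, near the 7.39% of all tested genes) and 0 rose. Their median was -0.41 (-0.15 with the covariate), and 1 did not overlap in each direction (1.3% with T cell-low below, against 4.02% of all tested genes). Mrpl39 (-2.79, limma adjusted p = 0.0192), Mrpl49 (-1.19, adjusted p = 0.0246) and Mrpl10 (-1.21, adjusted p = 0.0283) were among those that fell. The complex I subunits had 12 of 38, a median of -0.65 (-0.37) and 10. Whether complex I differs from these groups was not tested.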

How the data were processed

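Total RNA of liver was made into 3′ mRNA libraries (QuantSeq FWD), per the labels' protocols. The submitters' processing notes name STAR, DESeq2 and mm10. How reads were counted, and on which annotation, is not given in the sources used here. Deposited values are a signal per gene and library, taken to be gene counts the authors scaled to a common depth. Only 4.9% to 6.9% of values above 0 were whole multiples of a library's commonest value (tolerance 0.01), so whole reads, depth and counting error are unknown, and an exact 0 may be a failed estimate.

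Columns were matched to samples by their label. Genes with a mean of at least 10 were tested on log2(value + 1) with limma 3.58.1 in R 4.3.3 (trend, group as the only term, two-sided, Benjamini-Hochberg, called below 0.05). The fit was also run on simulated data with independent noise. That simulation held no set of libraries that stands apart, so it cannot speak for the calls here. Members, lists, alternatives and the library set were chosen with earlier results of these data known. Values in every library are given for the 12 called members of lowest p, the core subunits (1 member is not reported singly here), the Ndufaf genes and the Ndufa4 pair, and in the other lists for up to 3 called genes. The other members are given by range or fold change, and Ndufb3, Ndufa1 and Ndufa8 were singled out after their values were seen. Genes, overlaps and 3′ ends are from GENCODE vM21, where 47 of 47 members were found. A 3′ end counts as shared from 20% of the 50-base words in its last 400 bases, which 4 members reach, and 8 members overlap a gene on the other strand. Figures used matplotlib 3.10.9 in Python 3.11.15.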

Additional observations from a re-analysis of the deposited data

Results flagged for a closer look

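In 5 members 1 library stood apart from the rest of its group by the gap test for small groups, on the log2 scale. Both groups of each of the 46 tested members were searched. Chance flags about 1 in 20 groups, so 5 is near what chance alone gives. Ndufb10 was high in T cell-low 1 (743 scaled counts), the only called member among them. Low values were those of Ndufa5 in T cell-low 4 (1221), Ndufaf8 in T cell-low 4 (359), Ndufaf5 in T cell-low 2 (4.88) and Ndufaf6 in T cell-high 4 (128).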

How the results depend on the processing

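Main values are 12 subunits and 1 assembly factor called lower, 0 and 0 higher, 821 genes lower and 599 higher, and medians of -0.65 and -0.53. Rescaling to equal totals, which moves the median of all genes to -0.115, gave 19 subunits and 2 assembly factors lower, medians of -0.77 and -0.65, and 1068 genes lower and 421 higher. Quantile normalization gave 5 subunits and 0 assembly factors (6.34% of all genes lower). Without a filter 6 and 0 were called (3.52%), and with a threshold of 0.1 it was 23 and 2 (1567 genes lower, 1304 higher). Removing each library's trend on transcript length gave 8 and 0 (6.95%). A pseudocount of 10 or a filter at a mean of 50 gave 2 assembly factors (7.77% and 10.1%). With the library set as a covariate 0 subunits, 0 assembly factors and 0 genes in either direction were called by limma (1788 genes at an unadjusted p below 0.05), and the subunit median was -0.37. The 4 members that share at least 20% of their 3′ end were uncalled or not tested, so leaving them out could not change the count of 12. Ndufab1, which shares 18.9%, was called and stays in that count.

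Replicate numbers did not pair the libraries: deviations of same-numbered libraries correlated at 0.104, 0.211, -0.0988 and -0.151, and only T cell-low 2 correlated best with its own number. With the replicate block, over 8 libraries, 0 subunits and 0 assembly factors were called, with 155 genes lower and 76 higher. The same 8 libraries without the block, an alternative chosen after seeing the data, gave 0, 0, 6 and 7.

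Leaving out 1 library gave 0 to 24 subunits lower, 0 to 2 assembly factors lower and 0 to 1 higher, 67 to 1909 genes lower and 41 to 1713 higher. The medians stayed between -0.75 and -0.51 for subunits and between -0.65 and -0.40 for assembly factors. The fold change turned sign only in uncalled members. With the library set as a covariate it was 0.11 for Ndufa1, -0.08 for Ndufa2, 0.19 for Ndufa4, 0.66 for Ndufb4c and 0.20 for Ndufc2. With the length trend removed it was 0.08 for Ndufaf2 and 0.04 for Ndufs6, and with quantile normalization 0.03 for Ndufs6. Leaving out 1 library gave -0.21 to 0.03 for Ndufa5 (0.02 when T cell-low 4 and 0.03 when T cell-high 2 was left out), -0.16 to 0.13 for Ndufaf2 (above 0 without T cell-low 2, T cell-low 4, T cell-high 2 or T cell-high 3: 0.04, 0.13, 0.02 and 0.01) and -0.23 to 0.08 for Ndufs6 (0.08 and 0.04 for the same libraries). The cause of these changes was not tested, and counting depth cannot be read from the table.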
